A study of Homo sapiens with 33 samples.

Results

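BUB3 and CKS2 are human cell cycle genes whose mRNAs were cut into numbered tiles for a pooled test of recovery with the RNA-binding protein PUM2. Every tile whose name carries BUB3 or CKS2 before the tile number was taken, which gave 98 BUB3 tiles and 7 CKS2 tiles, 105 of the 1599 tiles in the PUM2 pool. Each tile was listed with 22 barcodes, so that the same stretch of RNA could be counted under up to 22 labels. No library held a read of 101 of the 2156 BUB3 barcodes and 4 of the 154 CKS2 barcodes. The series holds 33 libraries of 5 such pools in HEK293T, a line derived from human embryonic kidney, and the other 4 pools hold no tile of these mRNAs. The anti-PUM2 immunoprecipitate (3 libraries) was set against Input (3 libraries). Both came from HEK293T cells that received the oligo pool and no added protein, were harvested 48 hours after transfection and were fixed with 0.1% formaldehyde for 10 minutes. No precipitation with an unrelated antibody was among these groups, so recovery with PUM2 and recovery by precipitation in general cannot be told apart. The cell line could not be checked against marker genes, because only pool oligos were counted.

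BUB3 is a protein of the spindle assembly checkpoint, which delays the separation of chromosomes until all kinetochores are attached to microtubules, and it brings the checkpoint kinase BUB1 and its relative BUBR1 to kinetochores. CKS2 is a small protein that binds cyclin-dependent kinases and helps them to act on substrates that are already phosphorylated. PUM2 is a Pumilio-family protein that binds RNA at a short motif beginning with UGUA and, on many mRNAs, recruits enzymes that shorten the poly(A) tail. Of 10 spindle checkpoint genes and 9 genes of the cyclin-dependent kinase module that were listed for comparison, only BUB3 and CKS2 themselves had tiles in the pool. Tile sequences and their positions in the mRNA were not used here, so tiles are identified by number alone and no motif was searched.

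The immunoprecipitate libraries held 15986799 to 17727926 reads and the Input libraries 29433144 to 35092298. Values below are CPM, the reads of a tile scaled to a common library size after a TMM factor, which places the typical tile near no difference. BUB3 tiles had no read for 59.8%, 57.6% and 54.5% of their barcodes in immunoprecipitate libraries A, B and C, against 9.28%, 8.86% and 9.55% in Input A, B and C. Of the CKS2 barcodes, 26.6%, 28.6% and 19.5% had no read in the immunoprecipitate and 3.9%, 3.25% and 3.9% in Input. The whole pool stood at 46.8% to 51.5% in the immunoprecipitate and 9.16% to 9.40% in Input.

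CKS2 tiles 4 and 5 were recovered far above Input and the 5 other CKS2 tiles were not. CKS2:5 was 24.1-fold higher and CKS2:4 was 14.2-fold higher in the immunoprecipitate, while tiles 1, 2, 3, 6 and 7 lay between 0.810 and 1.32 of their Input level and none of them passed the test. Thus 2 of 7 tiles rose (28.6%), where 14.1% of the 1563 tested tiles of the pool were called higher, and 0 of 7 fell, where 4.16% of the pool were called lower. Called means a Benjamini-Hochberg adjusted p under 0.05 in edgeR's quasi-likelihood test, adjusted over all tested tiles. By unadjusted p under 0.05 in edgeR the same count of 2 CKS2 tiles passed, where 470 of the pool's 1563 tested tiles did. DESeq2 also called 2 higher, where 18.7% of the pool were, and 0 lower, where 10.9% were.

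CKS2:5 had 2786, 3157 and 2892 CPM in immunoprecipitate libraries A, B and C, against 137, 124 and 106 CPM in Input. The 3 immunoprecipitate libraries all lay far above the 3 Input libraries, and the groups did not overlap. The log2 fold change was 4.59 ± 0.15 (SE, n = 3 against 3, adjusted p = 3.0e-07 in edgeR). CKS2:4 had 3942, 4272 and 3206 CPM in the immunoprecipitate, against 280, 288 and 237 CPM in Input. Here too every immunoprecipitate library stood above every Input library, with a log2 fold change of 3.83 ± 0.15 (SE, adjusted p = 1.06e-06 in edgeR). Across the 13 other settings tried, the log2 fold change stayed between 4.35 and 4.68 for CKS2:5 and between 3.59 and 3.98 for CKS2:4, and both calls were kept in each of them.

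On either side of this pair the recovery was at Input level. CKS2:3, the tile numbered just before it, had 736, 687 and 779 CPM in the immunoprecipitate and 845, 910 and 788 CPM in Input (log2 fold change -0.21 ± 0.13, SE, adjusted p = 0.347 in edgeR). CKS2:6, the tile just after it, had 281, 328 and 470 CPM in the immunoprecipitate and 287, 260 and 268 CPM in Input (0.40 ± 0.24, adjusted p = 0.310 in edgeR). CKS2:3 was slightly below Input in every library, whereas the groups overlapped for CKS2:6. At the ends of the mRNA's tile numbers, CKS2:1 averaged 877 ± 115 CPM in the immunoprecipitate and 1083 ± 94.4 CPM in Input (SD, n = 3 each; log2 fold change -0.30 ± 0.14, SE). CKS2:2 averaged 1200 ± 250 CPM in the immunoprecipitate and 1198 ± 130 CPM in Input (0.00 ± 0.17). CKS2:7 averaged 359 ± 23.1 CPM in the immunoprecipitate and 337 ± 31.8 CPM in Input (0.09 ± 0.18). The immunoprecipitate libraries of CKS2:1 lay below all of Input, and those of CKS2:2 and CKS2:7 overlapped it. Scaling by library size alone, which moved the median of all tiles by -0.23 on the log2 scale, called CKS2:1 (-0.54, adjusted p = 0.0334 in edgeR) and CKS2:3 (-0.44, adjusted p = 0.0426) lower and left 2 CKS2 tiles higher.

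The share that each tile takes of all CKS2 reads in a library does not depend on scaling. CKS2:4 took 40.1%, 39.5% and 31.5% of the CKS2 reads in immunoprecipitate libraries A, B and C, against 7.01%, 6.92% and 5.61% in Input. CKS2:5 took 28.3%, 29.2% and 28.4% in the immunoprecipitate, against 3.43%, 2.98% and 2.5% in Input. Together they made up 65.6% ± 4.97 of the CKS2 reads in the immunoprecipitate and 9.47% ± 1.20 in Input (SD, n = 3 each). CKS2:5 was the scarcer of the pair in all 6 libraries, at 0.707, 0.739 and 0.902 reads per CKS2:4 read in the immunoprecipitate and 0.49, 0.431 and 0.445 in Input. The ratio between these tiles was thus higher in every immunoprecipitate library than in any Input library. An exact permutation test of 3 against 3 libraries cannot go below p = 0.1, so no test of that ratio is given.

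The enrichment of both CKS2 tiles was spread over their barcodes. All 22 barcodes of CKS2:5 were higher in the immunoprecipitate, with log2 ratios of mean CPM from 3.20 to 6.31 and a median of 4.78. All 22 barcodes of CKS2:4 were higher as well, from 1.41 to 5.92 with a median of 3.50. No single barcode carried either tile, since the most abundant barcode took 11.5% of the immunoprecipitate reads of CKS2:5 and 18% of those of CKS2:4, and 11.8% and 12.1% of their Input reads. Barcode 2 of CKS2:5 gave 5698, 4324 and 5887 reads in the immunoprecipitate, against 376, 242 and 561 in Input. Barcode 20 of CKS2:4 gave 12711, 10810 and 8516 reads in the immunoprecipitate, against 458, 404 and 713 in Input. Single barcodes were noisier than their tile: barcode 3 of CKS2:5 had 0, 771 and 0 reads in the immunoprecipitate and 116, 0 and 73 in Input, and barcode 11 of CKS2:4 had 3810, 1088 and 2 in the immunoprecipitate and 99, 29 and 47 in Input. The barcodes named here were chosen after their values were seen.

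The number of barcodes seen in the immunoprecipitate also varied among the CKS2 tiles. CKS2:5 was detected with 21 barcodes in each immunoprecipitate library and CKS2:4 with 21, 22 and 22, whereas CKS2:6 was detected with 7, 7 and 12 and CKS2:7 with 10, 9 and 13. In Input these 4 tiles were seen with 20 to 22 barcodes. Of 105 barcodes of the 5 other tiles with at least 30 reads, 37 were higher and 68 lower in the immunoprecipitate, and 11 had no immunoprecipitate read. When each barcode was tested by itself in edgeR, 15 barcodes of CKS2:5 and 12 of CKS2:4 were called higher, out of 22 tested in each. The 27 barcodes called higher were 18.4% of the 147 tested for CKS2, where 1.99% of the pool's barcodes were called higher, and 10 CKS2 barcodes were called lower, 6.8% against 18.1% of the pool. Barcodes of a tile share its sequence and its libraries and are not replicates. These barcode calls fell to 0 in edgeR whenever any 1 Input library was left out, with 41 or 42 CKS2 barcodes still at an unadjusted p under 0.05. No count over the pool's barcodes was made in those fits.

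Summed over its 7 tiles, CKS2 had 9839, 10825 and 10180 CPM in the immunoprecipitate, against 3997, 4163 and 4224 CPM in Input. The sum was higher in all 3 immunoprecipitate libraries, by 2.49-fold (exact two-sided permutation p = 0.1, the smallest that 3 against 3 allow). As a percentage of all reads in a library, without TMM scaling, CKS2 took 0.947% ± 0.0399 in the immunoprecipitate and 0.448% ± 0.0185 in Input (SD, n = 3 each), or 2.11-fold more.

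In BUB3, recovery above Input was found in single tiles and short runs of tiles, while most tiles lay near Input or slightly below it. Of 97 tested tiles, 11 rose (11.3%, against 14.1% of the pool), 5 fell (5.15%, against 4.16%) and 81 did not pass. The shares called were thus near those of the pool as a whole. The median log2 fold change of the 97 tiles was -0.26, against -0.06 for all tested tiles of the pool, and 62 lay below 0 and 35 above. The immunoprecipitate and Input libraries did not overlap in 38 BUB3 tiles (39.2%, against 40.3% of the pool), 16 of them higher, where 19.7% of the pool were, and 22 lower, where 20.6% were. By DESeq2, 13 BUB3 tiles were called higher, where 18.7% of the pool were, and 14 lower, where 10.9% were. With library size as the only scaling 11 were higher and 18 lower, among 198 higher and 227 lower in the pool, where the TMM-scaled fit gave 220 and 65.

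The strongest BUB3 tile was BUB3:65, with 342, 356 and 370 CPM in the immunoprecipitate, against 37.5, 34.4 and 37.2 CPM in Input. The libraries of each group lay close together and the groups were far apart, at a 9.79-fold difference (log2 fold change 3.29 ± 0.25, SE, adjusted p = 2.75e-05 in edgeR). Its neighbour BUB3:64 had 96.2, 188 and 273 CPM in the immunoprecipitate and 44.6, 21.7 and 57.1 CPM in Input. BUB3:64 was called higher (2.18 ± 0.54, adjusted p = 0.0259 in edgeR), but immunoprecipitate library A stood well below B and C. Its call was lost without immunoprecipitate B or C or without any 1 Input library, at adjusted p of 0.0504 to 0.0952 in edgeR. On the other sides, BUB3:66 was at 20.4 ± 29.1 CPM in the immunoprecipitate and 49.9 ± 18.3 CPM in Input (SD, n = 3 each), and BUB3:63 was at 77.4 ± 48.7 CPM in the immunoprecipitate and 102 ± 25 CPM in Input. Neither of them passed with all libraries, while BUB3:66 was called lower without immunoprecipitate C (adjusted p = 0.0152 in edgeR).

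BUB3:17 and BUB3:18 formed a second pair of adjacent tiles, with nearly equal fold changes. BUB3:17 had 848, 1054 and 965 CPM in the immunoprecipitate, against 103, 96.4 and 144 CPM in Input, which is 8.33-fold higher (3.06 ± 0.22, SE, adjusted p = 1.97e-05 in edgeR). BUB3:18 had 1223, 1689 and 1266 CPM in the immunoprecipitate, against 204, 168 and 132 CPM in Input, or 8.30-fold higher (3.05 ± 0.22, adjusted p = 2.44e-05 in edgeR). For both tiles every immunoprecipitate library exceeded every Input library severalfold. Of the barcodes with at least 30 reads, 21 of 21 were higher for BUB3:17 and 20 of 22 for BUB3:18. The flanks differed in how well they could be measured: BUB3:19 was at 227 ± 132 CPM in the immunoprecipitate and 275 ± 15.2 CPM in Input (SD, n = 3 each). BUB3:16 was scarce, with 0, 0 and 281 reads in the immunoprecipitate and 168, 230 and 82 in Input, and 1 barcode held 99.6% of its immunoprecipitate reads. No direction can be given for BUB3:16, whose fitted value turned negative without that barcode.

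The third stretch ran over tiles 31, 32 and 33, with its peak in the middle tile. BUB3:32 had 2759, 2627 and 2244 CPM in the immunoprecipitate, against 529, 469 and 463 CPM in Input (2.38 ± 0.13, SE, adjusted p = 3.92e-06 in edgeR), and all 22 of its barcodes were higher. This 5.22-fold difference had the smallest adjusted p of the BUB3 tiles. BUB3:31 had 1273, 1059 and 1343 CPM in the immunoprecipitate, against 570, 548 and 625 CPM in Input (2.11-fold, adjusted p = 8.02e-04 in edgeR). BUB3:33 was much scarcer, with 187, 247 and 149 CPM in the immunoprecipitate, against 62.5, 40.0 and 67.3 CPM in Input (3.43-fold, adjusted p = 0.0114 in edgeR). The groups did not overlap for either flank, but BUB3:33 rested on 11 higher barcodes of 19 with at least 30 reads, and its call was lost without Input library A or B (adjusted p = 0.0506 and 0.0710 in edgeR). Outside the stretch, BUB3:30 averaged 537 ± 116 CPM in the immunoprecipitate and 672 ± 21.8 CPM in Input, and BUB3:34 averaged 287 ± 70.2 CPM in the immunoprecipitate and 199 ± 22.6 CPM in Input (SD, n = 3 each), and neither passed.

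The other 4 BUB3 tiles that rose stood alone in tile number, at 2.25-fold to 2.67-fold. BUB3:55 had 312, 597 and 557 CPM in the immunoprecipitate, against 174, 192 and 182 CPM in Input (2.67-fold, adjusted p = 0.00723 in edgeR). BUB3:51 had 2221, 2701 and 1967 CPM in the immunoprecipitate, against 922, 929 and 917 CPM in Input (2.49-fold, adjusted p = 1.79e-04 in edgeR). These immunoprecipitate values lay above Input in every library, with library A lowest for BUB3:55 and library C lowest for BUB3:51. BUB3:11 had 834, 1021 and 745 CPM in the immunoprecipitate, against 373, 355 and 330 CPM in Input (2.46-fold, adjusted p = 8.02e-04 in edgeR). BUB3:71 had 582, 696 and 694 CPM in the immunoprecipitate, against 331, 291 and 254 CPM in Input (2.25-fold, adjusted p = 0.00189 in edgeR). All 21 barcodes of BUB3:51 with at least 30 reads were higher, against 19 of 22 for BUB3:11, 17 of 22 for BUB3:71 and 15 of 21 for BUB3:55. These 4 calls were kept under each of the 13 other settings.

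The 11 tiles formed 7 runs, 3 of them of more than 1 tile, with the longest of 3. Of the 14 tested tiles that sat next to a tile called higher and were not called higher themselves, BUB3:72, beside BUB3:71, was called lower. The others did not pass in the edgeR fit with all libraries and barcodes, TMM scaling and no block on the column letter. The log2 fold changes of the 14 ran from -1.29 to 0.53, with 7 above 0 and 7 below. The signs of BUB3:10, BUB3:16, BUB3:19 and BUB3:56 among them turned in some settings. BUB3:52, beside BUB3:51, was at 550 ± 24.3 CPM in the immunoprecipitate and 393 ± 45.9 CPM in Input (SD, n = 3 each; adjusted p = 0.0843 in edgeR and 0.00982 in DESeq2). BUB3:50, on the other side of BUB3:51, was at 634 ± 219 CPM in the immunoprecipitate and 914 ± 132 CPM in Input. BUB3:10 and BUB3:12, beside BUB3:11, had log2 fold changes of 0.08 ± 0.37 and -0.52 ± 0.24 (SE). Near the other lone tiles, the log2 fold change was 0.29 for BUB3:54, 0.27 for BUB3:56 and 0.44 for BUB3:70. Next to the tiles that fell, it was 0.14 for BUB3:45, -0.43 for BUB3:47, -0.26 for BUB3:73, -0.38 for BUB3:74, 0.25 for BUB3:76, -0.53 for BUB3:88 and -0.12 for BUB3:90. None of these passed in edgeR with all libraries and TMM scaling, while library size alone called BUB3:12 and BUB3:47 lower (adjusted p = 0.0464 and 0.0331 in edgeR).

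The 5 BUB3 tiles that fell did so by less than 3-fold. BUB3:46 had 55.9, 64.7 and 92.0 CPM in the immunoprecipitate, against 218, 220 and 195 CPM in Input (log2 fold change -1.58 ± 0.32, SE, adjusted p = 0.00919 in edgeR). BUB3:77 had 215, 197 and 233 CPM in the immunoprecipitate, against 510, 510 and 740 CPM in Input (-1.45 ± 0.21, adjusted p = 0.00170 in edgeR). BUB3:75 had 67.1, 48.2 and 78.0 CPM in the immunoprecipitate, against 170, 150 and 159 CPM in Input (-1.31 ± 0.35, adjusted p = 0.0356 in edgeR). In each of these tiles all immunoprecipitate libraries were below all Input libraries. BUB3:72 had 180, 219 and 287 CPM in the immunoprecipitate, against 395, 396 and 392 CPM in Input (-0.79 ± 0.23, adjusted p = 0.0491 in edgeR), and BUB3:89 had 735, 635 and 1115 CPM in the immunoprecipitate, against 1406, 1399 and 1269 CPM in Input (-0.71 ± 0.21, adjusted p = 0.0492 in edgeR). Both passed narrowly, with immunoprecipitate library C nearest to Input. Of these 5 calls only that of BUB3:77 was kept whichever library was left out. BUB3:46 lost its call without Input A or B, BUB3:75 without any 1 Input library, and BUB3:72 and BUB3:89 without any 1 Input library or without immunoprecipitate A or B (adjusted p of 0.0535 to 0.203 in edgeR over all of these). BUB3:72 and BUB3:75 also lost their calls without their barcode of most reads (adjusted p = 0.0943 and 0.0638 in edgeR).

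Fewer barcodes were seen in the immunoprecipitate than in Input both for tiles that fell and for most that rose. Of the pool's barcodes, 46.8% to 51.5% had no read in the immunoprecipitate libraries, which held fewer reads, and 9.16% to 9.4% in Input. BUB3:46 was seen with 3, 4 and 6 of its 22 barcodes in the immunoprecipitate libraries, against all 22 in each Input library, and BUB3:75 with 7, 6 and 7 in the immunoprecipitate, against 22 in each Input library. BUB3:89 kept the most of the tiles that fell, with 15, 16 and 17 in the immunoprecipitate, against 22. Among tiles that rose, BUB3:33 was seen with 9, 6 and 6 in the immunoprecipitate, against 18, 18 and 17 in Input, and BUB3:65 with 9, 10 and 8, against 15, 16 and 13 in Input. BUB3:32 and BUB3:51 kept nearly all, with 22, 22 and 21 and with 20, 21 and 21 in the immunoprecipitate. Over the 5 tiles called lower, 96 of 110 barcodes with at least 30 reads were lower and 24 had no immunoprecipitate read. Over the 11 tiles called higher, 191 of 228 such barcodes were higher (83.8%). In the 81 tiles that did not pass, 538 of 1678 were higher (32.1%) and 537 had no immunoprecipitate read. Tiles and barcodes were counted on the same reads, so these counts describe the calls and do not test them. Tested one by one in edgeR, 23 BUB3 barcodes were called higher (1.27% of 1807, against 1.99% of the pool), each within a tile called higher, and 415 lower (23.0%, against 18.1%). By DESeq2 these numbered 73 and 455, for which no count over the pool was made. In edgeR the BUB3 barcode calls fell to 0 whenever any 1 Input library was left out, with 480 to 491 at an unadjusted p under 0.05. Here too the pool's barcodes were not counted. Not every tile called higher had such barcodes: BUB3:31, BUB3:33, BUB3:55 and BUB3:64 had 0 barcodes called higher in edgeR. BUB3:33 and BUB3:64 had 3 and 2 barcodes called lower. BUB3:18 and BUB3:71 had 1 called lower each, beside 7 and 1 called higher.

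The calls were also counted by tile number. Tiles 1 to 33 held 6 higher and 0 lower calls among 32 tested tiles, tiles 34 to 66 held 4 and 1 among 33, and tiles 67 to 98 held 1 and 4 among 32. The median log2 fold change was -0.11, -0.13 and -0.38 in these stretches, whose borders were set only to be of near equal length. Below Input, 4, 5 and 8 tiles reached an unadjusted p under 0.05 in edgeR in these stretches, in order. Such tiles below Input were not counted over the pool, where 470 of 1563 tested tiles passed in either direction. By DESeq2 the higher and lower calls were 7 and 2, 5 and 4, and 1 and 8. Of all tested tiles of the pool, edgeR called 14.1% higher and 4.16% lower, and DESeq2 called 18.7% and 10.9%. Of the 4 lower calls in tiles 67 to 98, those of BUB3:72, BUB3:75 and BUB3:89 were lost when any 1 Input library was left out. No test of this split was made.

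By fitted log2 fold change, the 3 BUB3 tiles furthest below Input were BUB3:29, BUB3:78 and BUB3:25. None of them passed in the edgeR fit with all libraries, TMM scaling and no block on the column letter. BUB3:29 had 1.31, 0 and 6.06 CPM in the immunoprecipitate, against 47.1, 41.2 and 48.3 CPM in Input (log2 fold change -4.21 ± 1.68, SE, adjusted p = 0.134 in edgeR and 0.00624 in DESeq2). BUB3:78 had 16.6, 91.3 and 89.9 CPM in the immunoprecipitate, against 245, 221 and 220 CPM in Input (-1.79 ± 0.59, adjusted p = 0.0762 in edgeR and 0.00229 in DESeq2). The groups did not overlap in either tile. In other edgeR fits BUB3:78 passed with library size alone, with the block and without immunoprecipitate A (adjusted p = 0.0391, 0.0182 and 0.0062). BUB3:29 passed without immunoprecipitate B or C (adjusted p = 0.0486 and 0.044 in edgeR). BUB3:25 was at 36.5, 2.69 and 0 CPM in the immunoprecipitate against 33.7, 45.9 and 44.0 CPM in Input, with library A of the immunoprecipitate at Input level and the other libraries far below. Among the named tiles the order differed on mean log2 CPM (prior count of 2), with differences of -5.70 for BUB3:29, -4.35 for BUB3:25, -3.19 for BUB3:16, -2.44 for BUB3:66 and -2.15 for BUB3:78.

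How well a BUB3 tile could be measured varied widely. Mean Input levels ran from 0.062 CPM for BUB3:15, the only untested tile, with 0, 0 and 53 reads in the immunoprecipitate and 1, 0 and 6 in Input, to 6936 CPM for BUB3:3. BUB3:3, which held 14% ± 1.68 of all BUB3 reads in the immunoprecipitate and 15.4% ± 0.757 in Input (SD, n = 3 each), did not pass, at a log2 fold change of -0.07 ± 0.13 (SE). In 12 BUB3 tiles at least 1 immunoprecipitate library had no read, and none of these tiles was called. The standard error had a median of 0.19 in the 48 tested tiles of higher Input level and of 0.52 in the other 49. The coefficient of variation between libraries had a median of 30.5% in the immunoprecipitate and 7.96% in Input for BUB3 tiles, and of 13.1% in the immunoprecipitate and 9.43% in Input for CKS2 tiles. Input level and fold change were barely related across the 97 tiles (Pearson's r = -0.13, Spearman's rho = -0.11), a description over tiles that share the same 6 libraries.

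Summed over its 98 tiles, BUB3 had 45624, 48452 and 47372 CPM in the immunoprecipitate, against 45292, 44725 and 44529 CPM in Input. This is a 1.05-fold difference (exact two-sided permutation p = 0.1, the smallest possible), and its direction depended on the scaling: as a percentage of all reads in a library BUB3 took 4.34% ± 0.138 in the immunoprecipitate and 4.87% ± 0.0717 in Input (SD, n = 3 each). Within the BUB3 reads, the 11 tiles called higher took 23.4%, 25.3% and 22.3% in the immunoprecipitate, against 7.4%, 7.03% and 7.2% in Input. The 5 tiles called lower took 2.75%, 2.4% and 3.81% in the immunoprecipitate, against 5.96%, 5.98% and 6.19% in Input. These 2 sets were chosen by the same comparison, so their shares are given as a description.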

How the data were processed

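The values are raw read counts, which the authors deposited as a table of the PUM2 pool with a line for each barcode of each tile. Per the labels' protocols, cDNA was amplified with primers at the universal sites of the oligos and sequenced as single-end amplicons. How reads were assigned, and whether molecular identifiers were used, is not given in the sources used here. PCR reads are not independent molecules. The other 4 pools were not used, and 0 columns stayed unmatched.

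Column names end in letters and labels in numbers, so each column was placed in its group only. Separate cultures are not stated in the labels, so a p-value reflects the spread of these libraries, which may be technical. Between libraries of a group, the chi-square statistic of the tile counts per degree of freedom was 72.2 to 669, so none repeated another.

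Counts were summed over the barcodes of a tile. Of the pool's 1599 tiles, 1563 passed filterByExpr and were tested, after TMM scaling, with edgeR 4.0.16 (quasi-likelihood F test, robust) in R 4.3.3. The standard error of a log2 fold change was taken as its size divided by the square root of F. CPM uses TMM-scaled library sizes. Barcodes were also tested as 1 feature each. The code was tested on simulated counts. Alternatives were RLE factors, unscaled library sizes, an open or stricter filter (mean count of 50), DESeq2 1.42.0, a block on the column letter, each library left out, each tile without its barcode of most reads, and prior counts of 0.5 and 10. Tiles, rules and lists were chosen with earlier results of these data known. By rule the text names every CKS2 tile and, for BUB3, all called tiles, tiles next to them and the 3 highest and 3 lowest. BUB3:3 and BUB3:15, the most and least abundant in Input, and BUB3:24 and BUB3:69 were named after their values were seen.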

Additional observations from a re-analysis of the deposited data

How the results depend on the processing

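The 18 calls (11 BUB3 higher, 5 BUB3 lower, 2 CKS2 higher) kept their direction in each of the 13 alternative fits of tiles, and 208 of 234 values kept their call. The other 26 values lost it: they belong to BUB3:33, BUB3:46, BUB3:64, BUB3:72, BUB3:75 and BUB3:89. The block lost the calls of BUB3:72 and BUB3:75 (adjusted p = 0.0701 and 0.0865 in edgeR). Library size alone gave 29 BUB3 calls and 4 CKS2 calls in place of 16 and 2, and DESeq2 gave 27 BUB3 calls and 460 in the pool in place of 285. With 1 library left out, the BUB3 calls numbered 10 to 26, highest without immunoprecipitate C (12 higher, 14 lower) and lowest without Input A or B (9 and 1). The CKS2 calls stayed at 2 and the pool's at 192 to 410. With 1 library left out, barcode calls ranged from 0 to 603 for BUB3 and 0 to 47 for CKS2, and DESeq2 gave 528 and 49. They were 0 without Input A, B or C in edgeR, with 480 to 491 BUB3 and 41 or 42 CKS2 barcodes at an unadjusted p under 0.05. The cause was not tested. Neither calls nor unadjusted p-values were counted over all barcodes of the pool in these alternative fits. The barcode counts of these fits thus cannot be set against the pool.

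The correlation of deviations between immunoprecipitate and Input of the same letter was -0.04, 0.01 and -0.02, and not every library correlated best with its own letter. Over all combinations of letters the correlations lay between -0.04 and 0.07. With no shared deviation in any combination, this check cannot tell whether libraries of the same letter were paired. With a replicate block on the letter, 17 BUB3 tiles (11 higher, 6 lower, of which 11 and 3 were called without it), 2 CKS2 tiles, 3 BUB3 barcodes and 12 CKS2 barcodes were called. Over the pool, the block gave 294 tile calls (215 higher, 79 lower), and barcode calls were not counted.

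Signs that turned belong to tiles that were not called. With library size alone CKS2:2 was at -0.23, CKS2:7 at -0.14, BUB3:10 at -0.16 and BUB3:45 at -0.10 (log2 fold change). With the block CKS2:2 was at -0.01, BUB3:10 at -0.03 and BUB3:16 at -6.13, and with no filter CKS2:2 was at 0.00. BUB3:16 was at -7.43 without its barcode of most reads (adjusted p = 0.0188 in edgeR), where nearly all its immunoprecipitate reads were removed, so the value is no bound. Without immunoprecipitate C, the only immunoprecipitate library with reads of BUB3:16, it was at -9.99 (adjusted p = 0.0136 in edgeR). With 1 library left out, CKS2:2 lay between -0.14 and 0.12, BUB3:10 between -0.42 and 0.38, BUB3:16 between -9.99 and 0.83, BUB3:19 between -0.55 and 0.18 and BUB3:56 between -0.05 and 0.49. Prior counts of 0.5 and 10 moved no named tile's log2 CPM difference beyond the SD of its immunoprecipitate libraries, which is wide for scarce tiles: BUB3:16 was at -4.50 and -1.75, BUB3:29 at -6.39 and -4.81 and BUB3:25 at -5.03 and -3.53. In the 6 tested BUB3 tiles under 1000 Input reads per library on average, standard errors were 0.97 to 2.21, and those of BUB3:24 (1.54) and BUB3:69 (1.52), which have more Input reads and an immunoprecipitate library at 0, lay in the same range.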
